A study of Homo sapiens and Mus musculus with 8 samples.

Results

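The 420 genes described here are all the rows of the deposited comparison of WM983 human melanoma cells without treatment (labelled day 0) and after UV exposure (labelled week 2), each set beside its row in the same comparison for UACC257, another human melanoma line. All 420 symbols had a row in both tables, which is 100% of each table, out of 16387 symbols in the 5 tables of the series, in which mouse symbols are counted apart from human ones. Each of the 4 human groups was 1 sample, labelled wild type, so no difference had a replicate check. UV exposure and the longer time to harvest go together in the design and cannot be told apart. The sample titles carry the mark UV3, while the time label and the tables carry 2, and the label was used. The culture protocol in the labels describes the mouse line B16N alone. The comparison addresses how UV exposure changes the transcriptome of melanoma cells, in a series on Ca2+ signalling in melanoma.

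Each row held a log2 fold change, a test statistic and a p-value, with no expression level, so depth and the levels of cell identity genes are unknown. Neither table names the numerator. Signs are therefore given as deposited, and a positive value may stand for higher or lower after UV. In what follows "positive" and "negative" are the deposited signs, and turning the sign of a line would turn all of its values together.

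The values show how the rows were chosen. In WM983, 217 rows were at 1 or above on the log2 scale and 202 at -1 or below, together 99.8% of the rows. The rows nearest to that bound in the authors' deposited table were CITED1 at 1.0002 and ZNF205 at -1.001, and the single row inside it was C8orf44-SGK3 at 0.73. A p-value adjusted over the 420 rows by the Benjamini-Hochberg method passed 0.05 for 418, or 99.5%, and the smallest p-value, 5e-05, stood in 351 rows. In UACC257 the smallest p-value was 0.0257 and 0 rows passed the same adjustment (0%), with 42 rows at an unadjusted p under 0.05 (10%). The rows were thus large in WM983 and small in UACC257 from the outset, so the gap between the lines and the share of changed genes were fixed by the choice and are not results. What the choice did not visibly fix is which genes these were, the sign in each line, the place of the genes in the genome and their values in B16N. The agreement of signs between the lines is limited by the choice, since no row with a small UACC257 p-value is there to be compared.

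Pigment cells make melanin in melanosomes, through enzymes and structural proteins that mark the differentiated melanocytic state. Sterol synthesis is governed by SREBP transcription factors. INSIG proteins hold these factors in the endoplasmic reticulum when sterol is plentiful, and NF-Y, which binds the letters CCAAT, acts beside them at many sterol gene promoters. MITF, the regulator of the pigment lineage, binds E-boxes that include CATGTG and CACGTG. INSIG1, of the sterol genes, and TYRP1, of the pigment genes, were among the 15 most positive rows in WM983. Their promoters and that of MSMO1, which stood lower at 1.66, are shown here from RefSeq (GRCh38.p14), 5′ to 3′. Each is given as 250 bases that end at the base before the start site. Capitals mark CCAAT and CACGTG in INSIG1, CCAAT and TCACNCCA (letters within a classical sterol regulatory element) in MSMO1, and CATGTG in TYRP1, on either strand. The strand is plus for the 3 genes, at chr7:155297628-155297877 for INSIG1, chr4:165327419-165327668 for MSMO1 and chr9:12693135-12693384 for TYRP1.
INSIG1: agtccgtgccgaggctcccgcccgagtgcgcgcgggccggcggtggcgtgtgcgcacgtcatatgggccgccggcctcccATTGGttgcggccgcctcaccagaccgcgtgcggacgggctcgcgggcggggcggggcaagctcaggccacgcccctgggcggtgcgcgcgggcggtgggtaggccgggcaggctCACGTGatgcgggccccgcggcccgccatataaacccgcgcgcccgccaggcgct
MSMO1: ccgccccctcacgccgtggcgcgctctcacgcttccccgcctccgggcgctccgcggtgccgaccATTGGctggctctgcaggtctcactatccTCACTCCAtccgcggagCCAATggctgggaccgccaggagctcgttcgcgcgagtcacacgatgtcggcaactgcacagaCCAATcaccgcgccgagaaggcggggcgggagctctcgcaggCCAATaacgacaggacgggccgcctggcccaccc
TYRP1: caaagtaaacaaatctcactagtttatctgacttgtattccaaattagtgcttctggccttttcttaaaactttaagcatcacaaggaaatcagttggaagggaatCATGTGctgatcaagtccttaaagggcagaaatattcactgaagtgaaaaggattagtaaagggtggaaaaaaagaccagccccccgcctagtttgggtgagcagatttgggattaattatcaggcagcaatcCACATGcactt

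Motif matches are a description of these letters and not of bound sites. Of the 9 sterol genes in the table, 7 had a promoter entry and 6 of these held CCAAT, against 33.0% of all 27305 promoters of the same length and 33.3% of the 183 promoters of WM983-positive rows. MSMO1 held 4 copies and alone of the 7 held TCACNCCA, which 3.18% of all promoters held. INSIG1 alone of the 7 held CACGTG, found in 6.49% of all promoters. That motif was in 7.65% of the promoters of WM983-positive rows and in 13.4% of those of WM983-negative rows. TYRP1 held CATGTG at 2 places, and 9.54% of all promoters held it at least once. The promoter of MLANA, the other pigment gene searched, did not hold it. It was in 4.92% of the promoters of WM983-positive rows and in 7.04% of those of WM983-negative rows. The differences between these shares were not tested. The motifs searched share no overlapping matches in the sequences shown.

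The cholesterol biosynthesis list, which also holds regulators of the pathway, had 9 of its 22 members in the table, and all 9 were positive in WM983, with a median of 1.28. Over all 420 rows, 218 were positive and 202 negative, and the positive rows had a median of 1.21. INSIG1, which restrains SREBP and is itself a target of it, stood at 2.49 in WM983 and at -0.31 in UACC257 in the authors' deposited tables. MSMO1, a sterol methyl oxidase, stood at 1.66 and 0.057 in the authors' deposited tables. These 2 genes had the highest values of the list in WM983.

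The remaining 7 members lay from 1.07 to 1.37 in WM983. That range is common in the table, where 322 of the 420 rows had a size from 1 to 1.5 in WM983. The quartiles of all WM983-positive rows were 1.09 and 1.43. HMGCS1, an early enzyme of the mevalonate pathway, was at 1.28 in WM983 and -0.14 in UACC257 in the authors' deposited tables. The later enzymes of isoprenoid supply had WM983 values of 1.28 for MVD, 1.37 for IDI1 and 1.21 for FDPS in the authors' deposited table. LSS, which closes the sterol ring system, had 1.07 in the authors' deposited table. In UACC257 3 of the 9 were positive and 6 negative, with a median of -0.077. INSIG1 was the single member of the list with an unadjusted UACC257 p-value under 0.05 (0.0393 in the authors' deposited table, 0.393 after adjustment).

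Genes that work beside the pathway were picked after their values were seen, so their shared sign in WM983 comes with the choice. FADS2 and FADS1, desaturases of polyunsaturated fatty acid synthesis, were at 2.44 and 1.33 in the authors' deposited table. STARD4, which carries cholesterol between membranes, was at 2.16 in the authors' deposited table. GGPS1, which draws on the isoprenoid branch, was at 1.17 and ACSS2, which makes acetyl-CoA from acetate, at 1.01 in the authors' deposited table. All 5 were negative in UACC257, between -0.23 and -0.053. LPL, the lipoprotein lipase gene, had the opposite sign, at -1.16 in WM983 and 0.34 in UACC257 in the authors' deposited tables.

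Of the melanosome list, 2 of 17 members had a row, and they were among the largest positive values. TYRP1, an enzyme of eumelanin synthesis, had the highest value of the table, 3.73 (a size of 13.3-fold) with a statistic of 12.9, and was at -0.22 in UACC257 in the authors' deposited tables. MLANA, a melanosomal protein and melanoma antigen, was at 2.14 in WM983 and -0.25 in UACC257 in the authors' deposited tables. Their unadjusted UACC257 p-values were 0.187 for TYRP1 and 0.0726 for MLANA in the authors' deposited table. CITED1, a transcriptional coactivator of pigment cells named because it lies at the bound, was at 1.0002 and -0.38 in the authors' deposited tables.

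**Figure D1:**
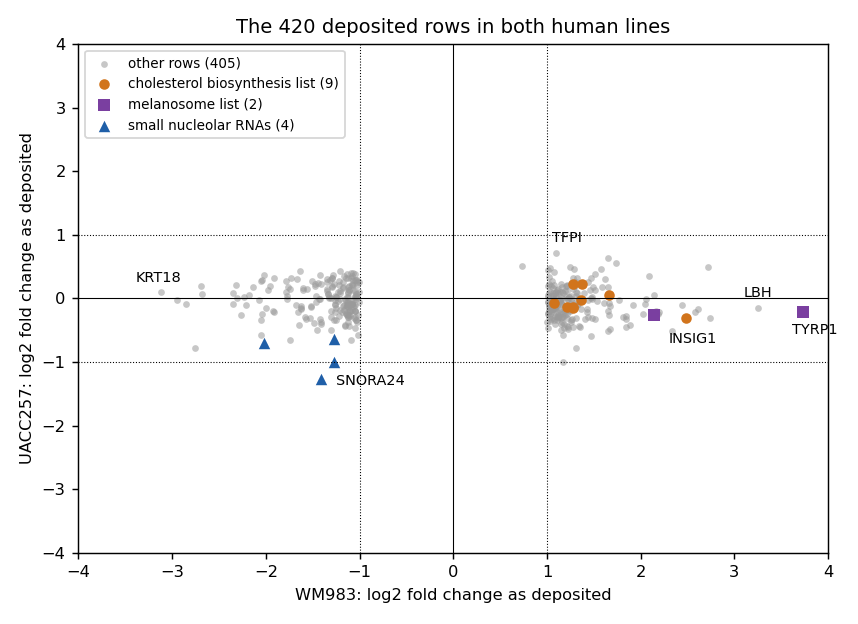
Log2 fold change as deposited in WM983 (horizontal) and UACC257 (vertical) for the 420 rows, 1 point a gene, with dotted lines at a size of 2-fold. Sterol and melanosome genes lie to the right with TYRP1 at 3.73, and the small nucleolar RNAs are negative in both lines.

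Regulators and marker genes of melanoma cells split by sign. SNAI2, which supports the melanocyte lineage, was positive in WM983 at 1.09, while SNAI1, a related repressor of epithelial genes, was at -1.05 in the authors' deposited table. SOX2, a stem cell factor, was at -1.21 and the neural crest factor FOXD1 at 1.73 in the authors' deposited table. ABCB5, a transporter used as a marker of a melanoma subpopulation, was at -1.78 and BIRC7, a melanoma inhibitor of apoptosis, at -1.63 in the authors' deposited table. MAGEA12, a cancer-testis antigen gene, was at -1.73 in WM983 and 0.32 in UACC257 in the authors' deposited tables. Of these 7 genes 2 were positive and 5 negative in WM983, beside 202 negative of all 420 rows. They were put together for this description, so the count describes these genes alone.

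Of 7 growth, stress and cell death regulators described here, 5 were negative in WM983, beside 202 of all 420 rows. The 7 were taken from several lists, without BIRC7, which is given above, so the count describes them alone. EGR3, an immediate early transcription factor, was at -2.69 with a statistic of -9.36, the most negative of the table, and at 0.19 in UACC257 in the authors' deposited tables. CCND1, which encodes cyclin D1 and follows MAPK signalling, was at -1.79, and CCNE1, which encodes cyclin E1, at -1.07 in the authors' deposited table. The authors' deposited table held 3 targets of p53, of which the stress cytokine gene GDF15 (-1.51) and TP53I3 (-1.27) were negative and CCNG1 (1.42) was positive. BCL2L11, which encodes the pro-death protein BIM, was at 1.03 in the authors' deposited table. In UACC257 EGR3, CCND1, CCNE1, GDF15 and TP53I3 were positive, between 0.19 and 0.40, while CCNG1 and BCL2L11 were negative at -0.17 and -0.25 in the authors' deposited table.

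Ca2+ signalling was represented by few rows. The store-operated Ca2+ entry list had 1 of 10 members in the table, TRPC1, a cation channel subunit, at 1.15 in WM983 and -0.49 in UACC257 in the authors' deposited tables. Its unadjusted UACC257 p-value was 0.0336 and its adjusted one 0.393. Neither the ORAI nor the STIM genes had a row, and since the rows were chosen, this gives no value for them. PIEZO2, a mechanically gated cation channel, was at -2.06 and MCOLN3, a channel of endolysosomes, at -1.03 in the authors' deposited table. KCNN2, a Ca2+-activated potassium channel, was at 1.43 and PLCG2, a phospholipase upstream of Ca2+ release, at 1.66 in the authors' deposited table.

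Of 5 antigen presentation and related genes put together for this description, 4 were positive in WM983, beside 218 of all 420 rows. HLA-F, a class I heavy chain, was at 1.14 and the class II chain HLA-DPA1 at 1.40 in the authors' deposited table. TAP2, a subunit of the peptide transporter that loads class I molecules, was at -1.18 in the authors' deposited table. MX1, an interferon-induced antiviral gene, was at 1.25 in WM983 and -0.34 in UACC257 in the authors' deposited tables. HLA genes are alike in sequence, overlap with antisense RNAs such as HLA-F-AS1 (1.15 in the authors' deposited table), and how reads were divided among them is not given in the sources used here.

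Of the 15 most positive rows in WM983, 12 were negative in UACC257, beside 140 of all 218 WM983-positive rows (64.2%). ATP6V0A4 (0.49), CERS1 (0.052) and the row whose symbol stands as the date 5-Sep (0.36, with 2.09 in WM983) were positive there in the authors' deposited table. After TYRP1 they were led by the transcription cofactor gene LBH (3.25), RFTN2 (2.74), the V-ATPase subunit gene ATP6V0A4 (2.72), FAM163A (2.61) and MAMDC2 (2.58) in the authors' deposited table. CAPG, an actin-capping protein gene, was at 2.19, the ceramide synthase gene CERS1 at 2.14 and the pseudokinase receptor gene PTK7 at 2.05 in the authors' deposited table. The most negative rows were the keratin gene KRT18 (-3.12), the non-muscle myosin gene MYH14 (-2.95), the histone gene HIST1H4F (-2.85) and LINC00085 (-2.76) in the authors' deposited table. Further down were the small GTPase gene RAC2 (-2.32), the osteopontin gene SPP1 (-2.23) and the co-chaperone gene DNAJA4 (-2.14) in the authors' deposited table. The statistic was less tied to the size of the change: LBH had 3.41, below that of PLEKHA4 at -8.64 in size, in the authors' deposited table.

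Genes of RNA modification stood on both sides of 0 in WM983. The following examples, with those of ribosome assembly and mitochondria, were picked after their values were seen, with no list behind them, so their signs describe these genes alone. BOP1 and PES1, partners in large ribosomal subunit maturation, were at -1.21 and -1.31 in the authors' deposited table. MEPCE, which caps a small nuclear RNA, was at -1.47 and the pseudouridine synthase gene PUS7 at -1.13, while the mRNA cap methyltransferase gene RNMT was at 1.10, METTL4 at 1.65 and the Elongator subunit gene ELP4 at 1.03 in the authors' deposited table. The ATP synthase subunit genes ATP5D (-1.10) and ATP5J2 (-1.16), the complex III gene UQCR10 (-1.13) and the mitochondrial RNA polymerase gene POLRMT (-1.21) were negative in the authors' deposited table. In UACC257 PES1 was at 0.28, POLRMT at 0.087 and ATP5J2 at -0.42 in the authors' deposited table.

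The 4 aldehyde dehydrogenase genes with a row were positive in WM983, with ALDH6A1 at 2.03, ALDH1L2 at 1.49, ALDH1A3 at 1.32 and ALDH3B1 at 1.23 in the authors' deposited table. The 3 V-ATPase subunit genes, whose products acidify lysosomes and melanosomes, differed in sign, with ATP6V1F at -1.92 and ATP6V0E2 at -1.01 beside ATP6V0A4 in the authors' deposited table. GAA, the lysosomal acid glucosidase gene, was at 1.77 in the authors' deposited table. Zinc finger genes named ZNF were divided, with 5 positive and 6 negative of 11.

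Signs in the 2 lines were set side by side for all rows. UACC257 values were small, with 400 of 420 below 0.5 in size and a median size of 0.19 (1.14-fold), against 1.22 (2.33-fold) in WM983. The sign was the same in 183 rows (43.6%) and opposite in 237. Of the 218 WM983-positive rows 140 (64.2%) were negative in UACC257, and of the 202 WM983-negative rows 105 (52.0%) were negative there. Over all rows 245 were negative and 175 positive in UACC257. Across the 420 genes Pearson's r was -0.079 and Spearman's coefficient -0.11. Genes are not independent replicates and the table holds no row with a small UACC257 p-value, so these coefficients are a description.

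The rows with the largest UACC257 values were small RNAs and a few further genes. SNORA24, a small nucleolar RNA that guides RNA modification, was the single row of at least 2-fold size in UACC257 (0.238% of the rows), at -1.27 there and -1.41 in WM983 in the authors' deposited tables. SNORA49 was at -0.998 and -1.27, SNORD104 at -0.70 and -2.01 and SNORD99 at -0.63 and -1.28, UACC257 first, in the authors' deposited tables. The 4 small nucleolar RNAs were thus negative in both lines, as were 105 of all 202 WM983-negative rows. Their unadjusted UACC257 p-values in the authors' deposited table were 0.0336 for SNORA24, 0.201 for SNORA49, 0.032 for SNORD104 and 0.0334 for SNORD99. None passed the adjustment. KRTAP19-1 (-0.996) and LINC00085 (-0.78) were larger in size in UACC257 than SNORD104 and SNORD99 in the authors' deposited table. On the positive side TFPI, which encodes an inhibitor of blood coagulation, had the highest UACC257 value, 0.72, with 1.10 in WM983 in the authors' deposited tables.

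The rows were also set out by position. Of the 420 symbols 409 matched a gene of the RefSeq annotation (GRCh38.p14, used for names, chromosomes and gene order alone, since no source used here names the build of the human tables). Coding genes among the rows were 1.95% of all RefSeq coding genes. Over all 420 rows 202 were negative in WM983. Signs were near even on some chromosomes, with 15 positive and 14 negative members on chromosome 1 and 7 of each on chromosome 12. The chromosomes that follow were picked for their uneven signs. On chromosome 7, 34 of 39 members were negative in WM983, on chromosome 19 29 of 39 and on chromosome 22 12 of 16. On chromosome 2, 28 of 32 members were positive, and on chromosome 21 all 9. In UACC257 the same members were 18 positive and 21 negative on chromosome 7, 11 and 21 on chromosome 2, and 5 and 4 on chromosome 21.

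**Figure D2:**
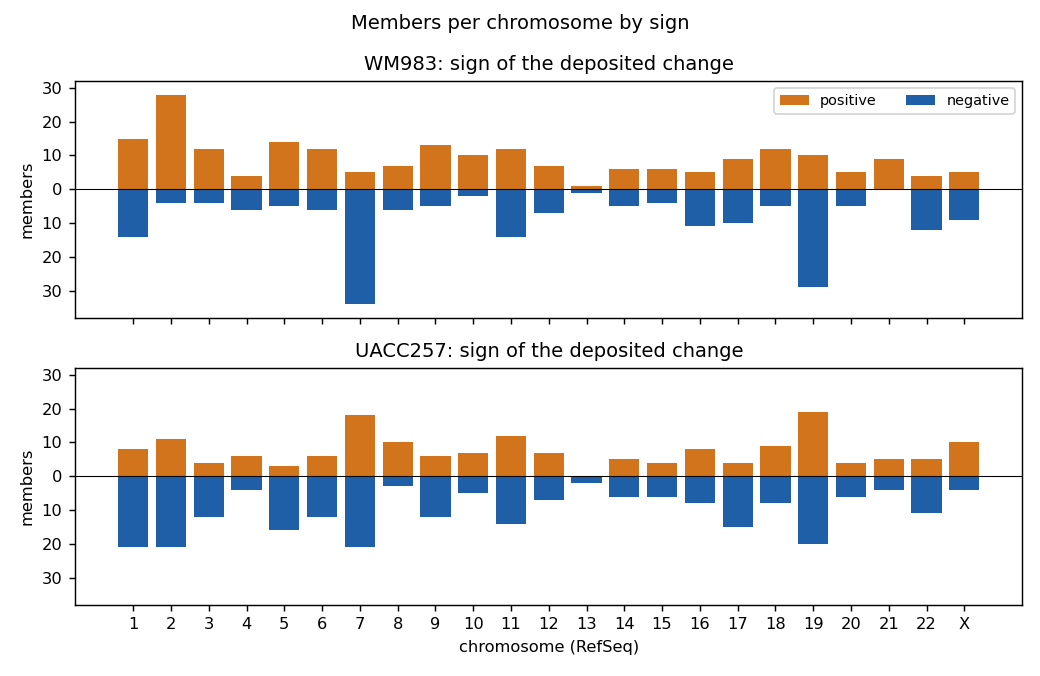
Number of members on each chromosome with a positive (upward bars) or negative (downward bars) deposited change, in WM983 (top) and UACC257 (bottom). In WM983 chromosome 7 has 34 negative members and 5 positive ones, chromosome 2 has 28 positive and 4 negative, and chromosome 21 has 9 positive and none negative.

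Neighbours along a chromosome had the same sign in WM983 in 259 of 386 consecutive pairs (67.1%), and in UACC257 in 212 of the same pairs (54.9%). Of all rows 51.9% were positive in WM983, and in UACC257 245 were negative and 175 positive, so many pairs share a sign in any order. The difference of either share from that of unordered rows was not tested. Runs of at least 5 consecutive members of one sign numbered 21 and held 186 members. The longest was a run of 25 negative members on chromosome 7, from PRKAR1B to PUS7. It held the ATP synthase gene ATP5J2 and the signalosome gene COPS6, with WM983 values from -2.04 to -1.04 and a UACC257 median of 0.033. Next were 16 negative members at the start of chromosome 19, from TPGS1 to ZNF558, and 16 positive ones on chromosome 2, from YPEL5 to GPR155.

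Some runs were dense. On chromosome 18 the first 13 members, from METTL4 to RNMT, held 12 positive ones and PIEZO2, while the 4 members beyond them were all negative. The 12 coding members of that stretch were 22.6% of its 53 coding genes. Its positive members lay between 1.02 and 1.65 in WM983. NDC80, a kinetochore gene, was at 1.10, the myosin light chain gene MYL12A at 1.28, TWSG1 at 1.14 and the centrosome gene CEP192 at 1.08 in the authors' deposited table. The stretch had a median of 1.10 in WM983 and of 0.020 in UACC257. On chromosome 7 the 10 members from PDAP1 to POP7 were all negative and were 17.2% of 58 coding genes, with a median of -1.23. On chromosome 19 the 11 from TPGS1 to KLF16 were all negative and were 19.3% of 57 coding genes, with a median of -1.21, and 6 from RHBDD3 to SFI1 on chromosome 22 had a median of -1.13. These 4 stretches were chosen after their values were seen.

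Several of the genes named above lay within such stretches. ATP5D and POLRMT belong to the chromosome 19 run, ATP5J2, MEPCE and PUS7 to that on chromosome 7, and UQCR10 and PES1 to that on chromosome 22. INSIG1, the last member along chromosome 7, had the sign of the minority on that chromosome, at 2.49 in the authors' deposited table. INSIG1 lay beyond the negative run that ended at ATP6V1F, among members of both signs. These included ATP6V0A4 (2.72) and STRIP2 (-1.79) in the authors' deposited table. LSS was 1 of the 9 positive members of chromosome 21, and IDI1 opened a run of 8 positive members on chromosome 10.

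**Figure D3:**
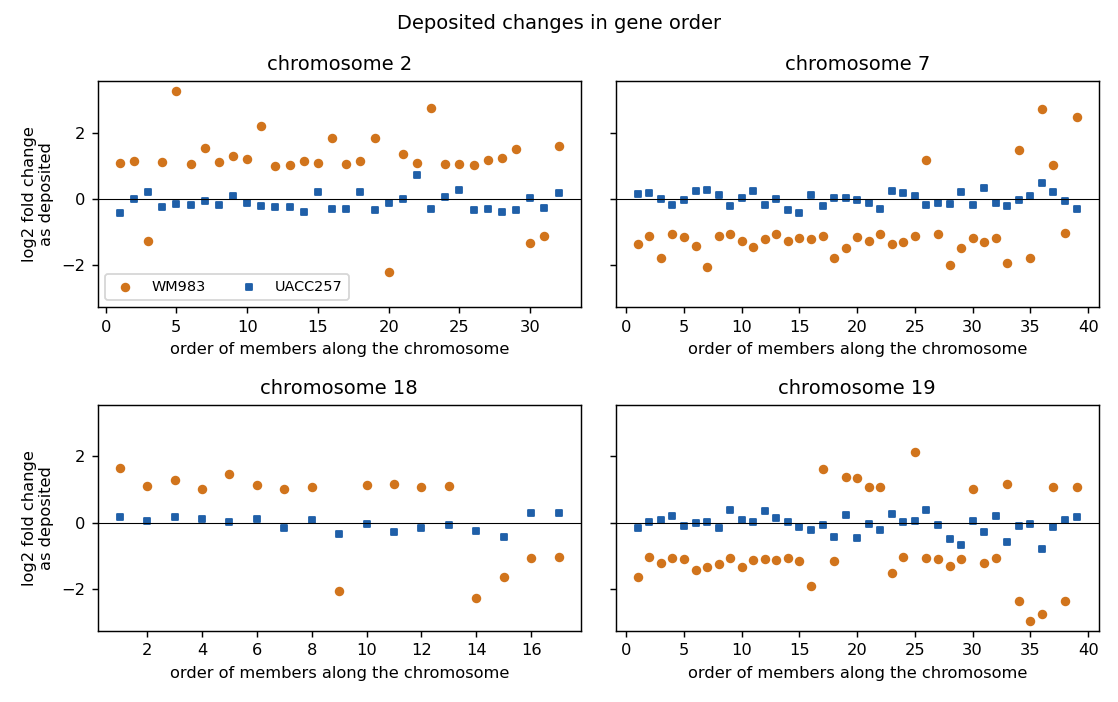
Deposited log2 fold change of each member in its order along chromosomes 2, 7, 18 and 19, for WM983 (circles) and UACC257 (squares). WM983 values form runs of one sign, as in the first 13 members of chromosome 18, of which 12 are positive, while UACC257 values lie around 0.

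Transcript composition also differed by sign. The longest annotated transcript of WM983-positive members had a median GC content of 44.9% (209 genes) and that of negative members 54.8% (198 genes), against 49.0% for all 19669 coding genes of GENCODE v29. Their median lengths were 3729 and 2941 nt, against 3173 nt. The quartiles overlapped, from 40.4% to 54.2% GC in positive and from 46.4% to 61.4% in negative members. Across 407 genes Spearman's coefficient of the deposited change with GC was -0.24 in WM983 and 0.060 in UACC257, given as a description. GC-rich genes lie together on chromosomes such as 19, and the part of transcript GC content in the WM983 signs was not tested.

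**Figure D4:**
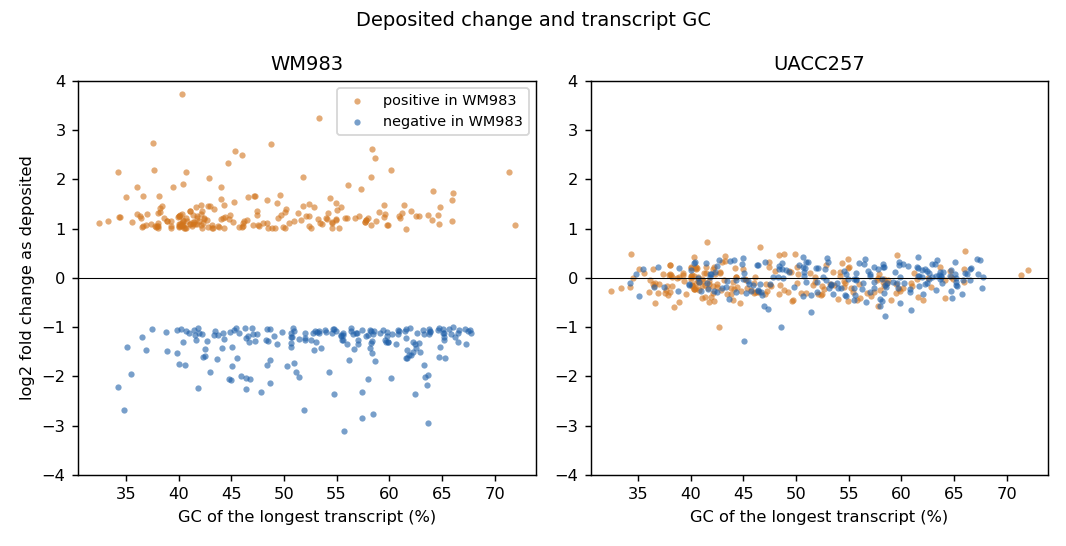
GC content of the longest transcript (horizontal, in percent) and deposited log2 fold change (vertical) in WM983 and UACC257, coloured by the sign in WM983. Positive members centre on a lower GC (median 44.9%) than negative ones (54.8%), and both colours mix around 0 in UACC257.

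The members were then looked up by symbol in the B16N mouse tables of UV against its own untreated sample, which share no sample with the human lines. Each B16N group was 1 sample too, so the standard error (SE) implied by those tables and the adjusted p-values hold no variation between samples and compare these libraries, not the conditions. In those tables the inferred sign is given as higher or lower in the UV library. At 5 weeks 27 of 291 matched members (9.28%) passed an adjusted p of 0.05, against 4.78% of all 14822 rows. Among WM983-positive members 21 of 155 (13.5%) passed, 13 higher and 8 lower, and among WM983-negative members 6 of 136 (4.41%), 4 higher and 2 lower. Over all rows 3.07% were higher and 1.71% lower. The median SE was 0.38 for the positive members, 0.27 for the negative ones and 0.38 for all rows. At 2 weeks 21 of 287 members passed (7.32%), against 7.67% of 14649 rows, 10 of 151 among the positive members (4 higher and 6 lower) and 11 of 136 among the negative ones (7 higher and 4 lower). Over all rows at 2 weeks 3.13% were higher and 4.55% lower. Both times share the untreated sample. The difference between these shares was not tested.

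Sterol and pigment genes were among the members that passed in B16N. Of the 9 sterol members 3 were higher after 5 weeks and none lower, namely FDPS (1.29, SE 0.19), INSIG1 (0.92, SE 0.18) and MSMO1 (0.64, SE 0.13) in the authors' deposited table. MVD was at 0.35, SE 0.12 (adjusted p = 0.0509 by Benjamini-Hochberg over the table), in the authors' deposited table. TYRP1 (0.36, SE 0.11), MLANA (0.53, SE 0.13) and CITED1 (0.85, SE 0.17) were higher as well in the authors' deposited table. The B16N values of TYRP1 were thus far smaller in size than its WM983 value of 3.73. At 2 weeks INSIG1 (0.68, SE 0.14) and TYRP1 (0.39, SE 0.084) were higher and MLANA was at 0.0077, SE 0.091, in the authors' deposited table. GGPS1, described above as working beside the pathway, was lower at 2 weeks (-0.48, SE 0.10) in the authors' deposited table. FADS1 was at 0.062 and -0.099 and FADS2 at -0.066 and -0.13, at 2 and 5 weeks, and neither passed.

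**Figure D5:**
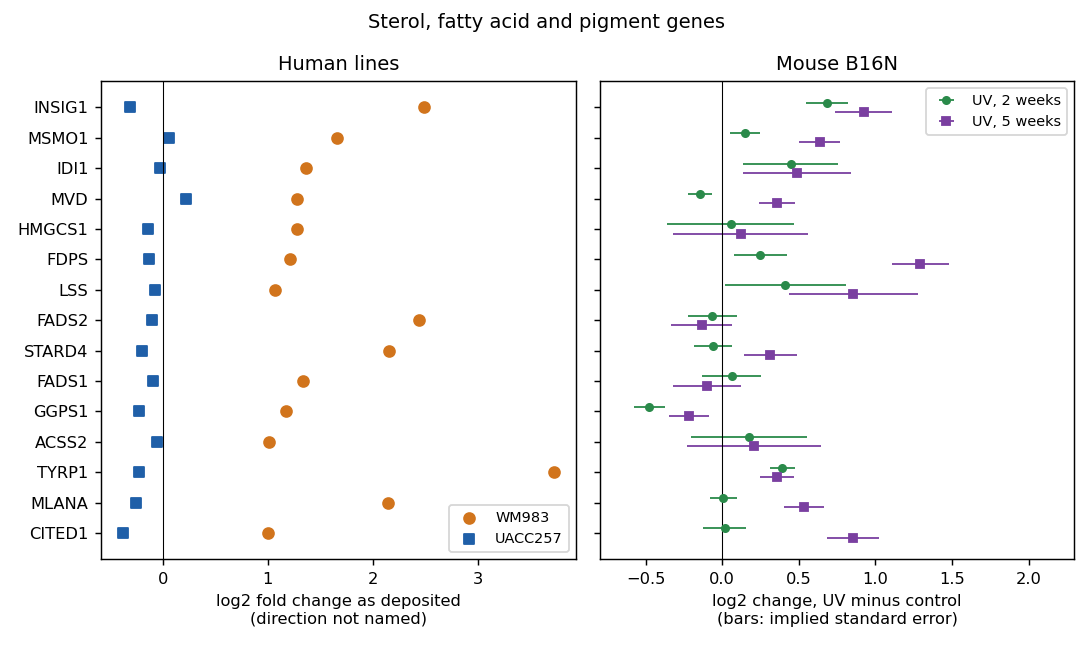
Left, deposited log2 fold change of sterol, fatty acid and pigment genes in WM983 (circles) and UACC257 (squares). Right, log2 change of the same genes in B16N after 2 (circles) and 5 weeks (squares) of UV against control, with bars for the implied SE. All 15 genes are positive in WM983, which comes with their choice. Some were picked after their values were seen, and LPL (-1.16 in WM983) is not shown. In B16N INSIG1 and TYRP1 are higher at both times, and GGPS1 is lower at 2 weeks.

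Further examples of the 13 positive members higher in B16N at 5 weeks were the mitochondrial folate enzyme gene ALDH1L2 (2.63, SE 0.38) and the catalase gene CAT (0.69, SE 0.14) in the authors' deposited table. Of the 8 positive members lower at 5 weeks, examples were LBH (-0.61, SE 0.15), the transcription factor gene TCF7L1 (-0.87, SE 0.22) and the Hedgehog signal transducer gene SMO (-0.68, SE 0.19) in the authors' deposited table. Among negative members, for example, GDF15 (2.13, SE 0.69) and UQCR10 (0.56, SE 0.17) were higher and the junctional adhesion gene JAM3 (-0.59, SE 0.18) was lower at 5 weeks in the authors' deposited table. Across the 291 matched genes Spearman's coefficient was 0.11 between WM983 and B16N at 5 weeks and -0.023 between UACC257 and B16N, given as a description.

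Of the 57 gene lists, 23 had no row in the table, among them the markers of immune cells, fibroblasts, keratinocytes and endothelial cells. As the rows were chosen, an absent marker gives no value, and the levels that would test the label of the lines were not analysed here.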

How the data were processed

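RNA-seq of untreated and UV-exposed WM983 and UACC257 cells, 1 sample per group, was compared by the authors, who deposited a log2 fold change, a test statistic, which is a score of unstated scale, and each gene's p-value, per the file headers. The test and its tool, the counting and the aligner are not given in the sources used here. GRCm38 is the single build in the submitters' processing notes, so the human build is not known. The tables hold no levels or counts, which leaves depth unknown and allows no interval. As deposited, the human p-values are not the normal p of the score (a score of -1.32 has a p of 0.0257 in the file and a normal p of 0.188), so no standard error could be drawn from them. The planned test of the difference between the lines, and the alternatives that needed a standard error, were therefore left out.

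The B16N tables were used to look up the members. Their deposited p-values are the normal p of the score (largest gap 5e-08), so the log2 change over the score gave the SE. Their sign was turned to UV minus control, because the 3 mouse tables share the control sample and the 1357 genes found in a single one of them, hence read from its treated sample, all had negative deposited values. This sign is inferred, since no source used here names it. Symbols were matched regardless of case, directly or through RefSeq synonyms (24 of 420). The 11 unmatched symbols, 1 of them turned into a date, have no position.

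P-values were adjusted by the Benjamini-Hochberg method within each table, a step tested on simulated data. Named genes were the 15 most positive and 15 most negative rows with a gene symbol (the row under a date, 5-Sep, was passed over and PTK7 taken), store-operated Ca2+ entry members and up to 4 members per list by size. The rest of that rule needed the test left out. Further genes were named after their values were seen, from the groups, stretches and tables where they appear. Values of a few members are not reported here. The members and lists were chosen with earlier results of these data known. Alternatives were other fold minimums, other p thresholds, the median set to 0, shared values left out and, added later, rows with a score of 0 or runs left out. Transcripts were from GENCODE v29 and promoters from RefSeq. Python 3.11.15, numpy 2.4.6, pandas 2.3.3, scipy 1.17.1 and matplotlib 3.10.9 were used.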

Additional observations from a re-analysis of the deposited data

Results flagged for a closer look

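In 237 of the 420 rows the deposited change had opposite signs in WM983 and UACC257. With 1 sample per group this difference was not tested. The rows were small in UACC257 from the outset, so the count leaves out genes with a clear change in both lines. Of the 42 rows with an unadjusted UACC257 p-value under 0.05 in the authors' deposited table, 24 were among them and 18 had the same sign in both lines. None of the 42 passed the adjustment over the 420 rows, with a smallest adjusted p of 0.393.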

How the results depend on the processing

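With a fold minimum of 4 the WM983 rows were 18 positive and 24 negative, against 217 and 202 at 2-fold. Setting the table's median to 0 shifted every WM983 value by 1.01, since positive rows are a slight majority, and left 18 rows positive at 2-fold and 202 negative. In UACC257 the median shift was -0.060. The share of rows with one sign in both lines was 43.6%. It was 100% among rows of at least 2-fold in both tables, which is the single gene SNORA24, and between 41.7% and 44.3% under the other alternatives run. Leaving out the members in runs of one sign, together with the 11 symbols without a position, kept 223 rows. It moved Pearson's r from -0.079 to -0.12, an alternative chosen after seeing the data. The 418 WM983 rows that passed the adjusted p were 418 under each other threshold run. Alternatives that needed a standard error were not run, nor was the correlation without rows of at least 2-fold, which leaves 1 row. No paired analysis was possible because each group had 1 sample. Unknown depth limits all values.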

Other observations

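Overlapping genes gave differing values. ZNF205 was at -1.001 and its antisense gene ZNF205-AS1 at 1.31 in WM983 in the authors' deposited table, where the latter had a statistic of 0 and a p-value of 1. SGK3 was at 1.11 and the read-through gene C8orf44-SGK3 at 0.73, also with a statistic of 0, in the authors' deposited table. These 2 rows are the only ones of the WM983 table with a statistic of 0. They could not have been chosen by their p-value. KRTAP19-1, a keratin-associated protein gene, was at 1.17 in WM983 and -0.996 in UACC257 in the authors' deposited tables, the most negative UACC257 value among WM983-positive rows.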
